A study of Mus musculus with 4 samples.

Results

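The 4 arrays of the study were read here as 1 AKT-activated array set against 3 arrays without active AKT. All were Agilent one-colour arrays of total RNA from mouse embryonic fibroblasts, isolated from pooled male E13.5 embryos of mice with EGFP under the promoter of Oct4. Every culture had been infected with retroviruses for Oct4, Sox2 and Klf4 (OSK), including the controls, and was sampled at 8 days postinfection (dpi). OSKA cultures also received AKT-MER, a myristoylated AKT fused to a modified estrogen receptor whose kinase becomes active when 4-hydroxytamoxifen (4OHT) binds. 4OHT or its ethanol vehicle was given from day 3. The AKT-activated array was OSKA +4OHT. The 3 AKT-inactive arrays were OSK -4OHT, OSK +4OHT and OSKA -4OHT. They were 3 different conditions used as stand-in replicates, so their range holds any effect of 4OHT alone and of unactivated AKT-MER. Retroviral infection gives a mixed culture, and fewer cells of a type and less RNA per cell cannot be told apart. The free-text description of OSKA +4OHT speaks of AKT-MER that was not activated, against its title and the series design, and the title was followed.

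AKT is the kinase downstream of phosphatidylinositol 3-kinase (PI3K) and of the insulin and growth factor receptors. It phosphorylates FOXO transcription factors, which then leave the nucleus, and it acts on mTORC1, glycolysis and cell survival. FOXO factors in turn drive genes of the insulin pathway itself, so that feedback between AKT and its upstream adaptors is known in many cells.

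A level is the log2 processed intensity minus the 75th percentile of its array. Levels of different genes come from different probes and are not compared. Of 34816 genes or transcripts on the array, 19540 were well above background on all 4 arrays by their brightest probe. Another 40 were so by a dimmer probe and were not used, 3192 on some arrays only, and 12044 on none. A gene was called outside the range where its level on OSKA +4OHT lay at least 2-fold (1 on the log2 scale) above the highest or under the lowest of the 3 AKT-inactive levels. The distance to that nearest level is called the gap. No group has a second array, so there was no replicate check and no test, and every comparison is a description of these 4 arrays. Between 52.4% and 55.4% of the spots that were not controls were well above background per array, and none was saturated. The 4 arrays lay at 4 positions of 1 slide, and position and group cannot be told apart.

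The labels for AKT-MER, and not those for 4OHT, were checked on its receptor part. The brightest probe of Esr1, the estrogen receptor gene (chromosome 10, 5489352 to 5489411, NCBI37), stayed under that level of detection on the OSK pair and read 3.11 on OSKA -4OHT and 3.32 on OSKA +4OHT. This probe thus gave signal on both arrays that received AKT-MER and on neither that did not. It cannot tell OSKA +4OHT from OSKA -4OHT, so the activation label of OSKA +4OHT was left unchecked. The probe of Akt1 read 5.91, 5.83, 5.82 and 5.90 in the order OSK -4OHT, OSK +4OHT, OSKA -4OHT and OSKA +4OHT, an order kept for each set of 4 levels that follows. Fibroblast markers were all measured, 26 of 26, with a median level between 3.96 and 4.39 on the 4 arrays.

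OSKA +4OHT stood apart from the other 3 arrays. Of the 19540 genes, 184 lay above the range of the 3 by at least 2-fold (0.942%) and 60 lay below it (0.307%). The same count for each other array against its other 3 gave 18 genes above and 29 below for OSK -4OHT, 11 and 3 for OSK +4OHT, and 20 and 21 for OSKA -4OHT. At any distance, 27.3% of all genes lay above and 37.5% below the range on OSKA +4OHT, against 31.6% and 27.2% on OSK -4OHT. OSKA +4OHT thus differed from OSK -4OHT more in genes far outside the range than in the number outside it. Scaled to the spike-in probes, which shifted the median of all genes by -0.19, the 2-fold counts were 96 above and 75 below. Of the genes 2-fold outside, 56.1% were then above in place of 75.4%. At any distance 1596 genes then lay above and 9287 below, in place of 5338 and 7320. The shares of 27.3% and 37.5% set beside the lists below are those without this scaling. With normexp background correction the 2-fold counts were 96 and 17. Of the 56 members named by rule as leading or list genes, 36 were then still at least 2-fold outside. This correction was run with an offset of 50 added to the intensities, which by itself narrows the gaps of dim probes. The share of the offset in the normexp values was not tested.

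**Figure D1:**
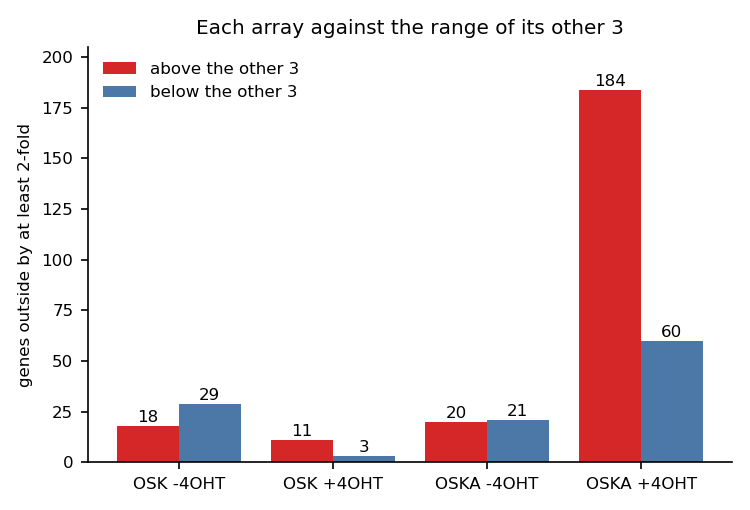
Number of genes (vertical axis) whose level on the named array lay at least 2-fold above (red) or below (blue) the range of its other 3 arrays, of 19540 genes measured on all 4. OSKA +4OHT held 184 genes above and 60 below, and no other array held more than 20 above or 29 below.

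The genes farthest above the range were 2 osteocalcins and the stress keratin gene Krt6b. The oligonucleotides that measured the osteocalcins are shown because these genes are close copies in one cluster on chromosome 3. Capitals mark the longest run of letters the pair shares, which is 13 bases, and both run 5′ to 3′ in NCBI37 on the minus strand, chr3:88181822-88181881 for Bglap2 and chr3:88172673-88172732 for the second of the measured Bglap3 probes.
Bglap2: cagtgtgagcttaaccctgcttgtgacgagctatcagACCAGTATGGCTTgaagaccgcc
Bglap3: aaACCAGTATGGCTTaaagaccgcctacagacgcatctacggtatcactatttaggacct

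Osteocalcin is the calcium-binding protein that mature osteoblasts secrete into bone. Bglap2 read -3.11, -2.78, -2.45 and 1.38, a gap of 3.83 and 14.2-fold above the highest AKT-inactive array. With normexp its gap was 3.08. Bglap3 read -2.30, -2.09, -1.87 and 1.76, a gap of 3.62. Its second probe, printed above, read -3.67, -3.48, -2.97 and 0.47, a gap of 3.44. Another member, Bglap, was well above background only on OSKA +4OHT, at -2.39, which put it at least 4.44-fold higher than on the others. Such a bound is taken against the lowest signal among probes well above background on each dim array, or the probe's own signal where that is higher. The brightest Bglap2 and Bglap3 probes shared no run longer than 7 bases, and the Bglap probe shared at most 7 with any measured probe of either gene. A second Bglap probe and another Bglap3 probe were not detected on any of the 4 arrays. Cross-hybridisation between the copies was not tested.

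Krt6b and Krt16 encode paired keratins of activated skin and mucosal epithelium. Krt6b, with its probe on chromosome 15, 101506492 to 101506551 (NCBI37), read -2.38, -2.63, -2.27 and 1.23, which was 11.3-fold above the highest of the 3. A second Krt6b probe was well above background only on OSKA +4OHT. Krt16 read 1.13, 0.79, 0.52 and 3.61, a gap of 2.48. For Bglap2, Bglap3, Krt6b and Krt16 the 3 AKT-inactive arrays lay within 0.66 of each other, and the gap was at least 4 times as wide as that spread. The software error of the gap was between 0.204 and 0.212. It combines the reading errors of OSKA +4OHT and of the nearest AKT-inactive array, and does not cover variation between cultures.

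**Figure D2:**
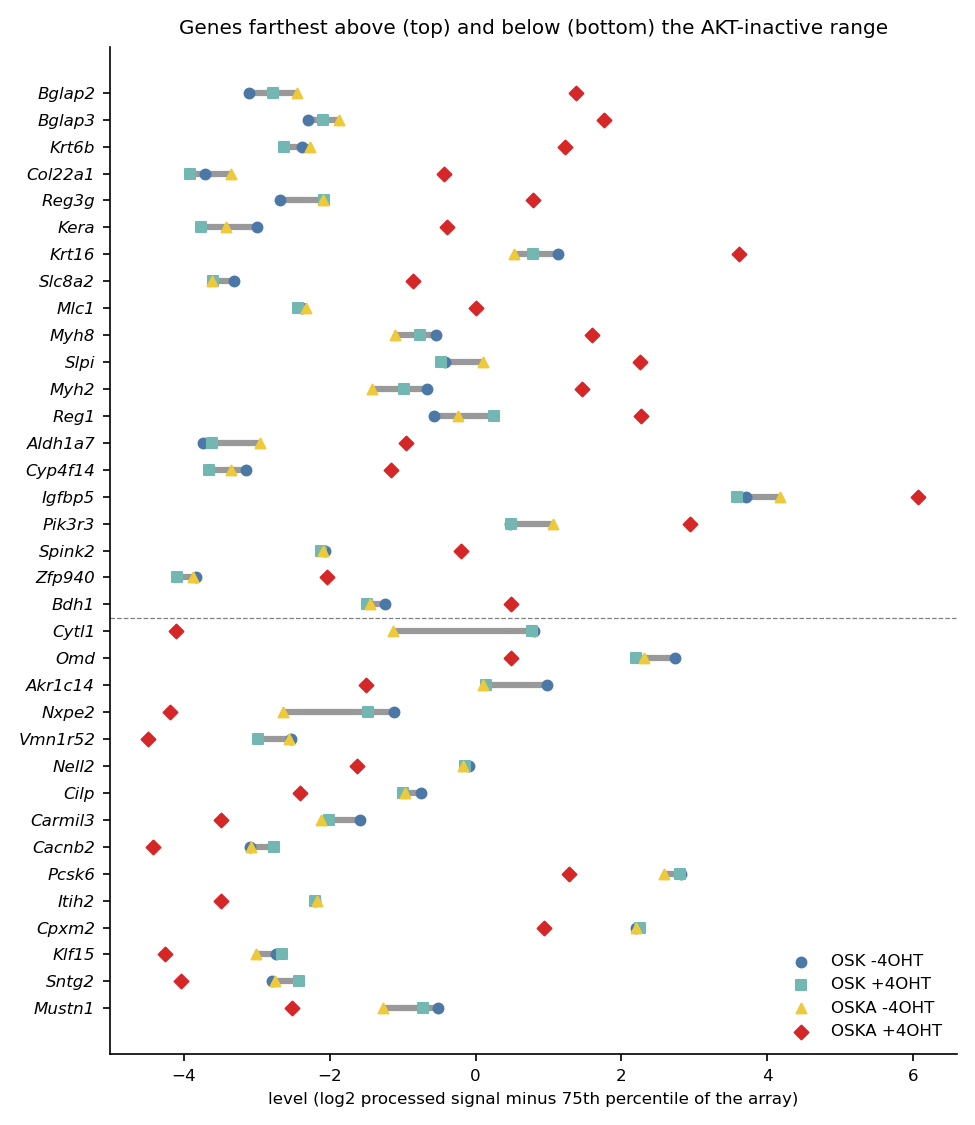
Levels (log2 processed intensity minus the 75th percentile of the array, horizontal axis) of the 20 named genes farthest above and the 15 farthest below the range of the 3 AKT-inactive arrays. Markers are single arrays and the grey bar is the range of the 3. OSKA +4OHT (red) lies clear of the bar in every row, while OSKA -4OHT (yellow) lies apart from both OSK arrays for Cytl1 and Nxpe2.

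Genes of the extracellular space were also among the 20 farthest above, and Col22a1, Reg3g and Kera lay between Krt6b and Krt16 by gap. Col22a1, a collagen of tissue junctions, read -3.71, -3.92, -3.35 and -0.43, which was 7.54-fold outside. Its gap of 2.91 became 1.83 with normexp. Kera, which encodes the proteoglycan keratocan of the corneal stroma, read -3.0, -3.77, -3.42 and -0.39. Igfbp5, a binding protein for insulin-like growth factors, read 3.71, 3.58, 4.17 and 6.07. The secreted protease inhibitors Slpi and Spink2 had gaps of 2.15 and 1.85. Slpi read -0.42, -0.48, 0.11 and 2.25. The secreted lectins Reg3g and Reg1 lie close together on chromosome 6 and read 0.79 and 2.26 on OSKA +4OHT, against at most -2.08 and 0.25 on the others.

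Pik3r3 encodes a regulatory subunit of PI3K itself. Its levels were 0.47, 0.49, 1.06 and 2.94, so that OSKA -4OHT lay slightly above both OSK arrays and OSKA +4OHT 3.67-fold above OSKA -4OHT. The muscle myosin heavy chains Myh8 and Myh2 had gaps of 2.15 and 2.12. Myh8 read -0.55, -0.76, -1.11 and 1.60. Its 3 other probes were not well above background on any array. The muscle-defining factors Myod1, Myog, Myf5 and Myf6 were on no array well above background. Only 3 of 14 skeletal muscle markers were measured on all 4. Of these 3, Myh8 lay above the range and 2 lay below it, with a list median of -0.31. The rest of the 20 leading genes encode membrane proteins of nerve and glia (Mlc1, gap 2.33, and the sodium-calcium exchanger Slc8a2, 2.45), metabolic enzymes (Aldh1a7, 2.01, Cyp4f14, 1.99, and the ketone body enzyme Bdh1, 1.73) and a zinc finger protein (Zfp940, 1.79, and 0.87 with normexp).

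The gene farthest below the range was Cytl1, which encodes a small secreted protein of cartilage. Its probe lies on chromosome 5, 38130789 to 38130848 (NCBI37), and read 0.81, 0.78, -1.13 and -4.11. Its level on OSKA -4OHT already lay below both OSK arrays, so that the gap of -2.98 became -4.89 when that array was left out, and -1.40 with normexp background correction. Omd, the bone proteoglycan osteomodulin, read 2.74, 2.20, 2.31 and 0.48, which was 3.28-fold under the lowest. Akr1c14, an aldo-keto reductase acting on steroids, read 0.97, 0.15, 0.10 and -1.51. Its neighbour Akr1c18, 42570 bases away, lay on the other side of the range with a gap of 1.29.

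Further down were secreted proteins and processing enzymes. Cilp, a cartilage matrix protein, read -0.74, -1.0, -0.96 and -2.41. Pcsk6, a proprotein convertase, read 2.82, 2.80, 2.59 and 1.28. Cpxm2, a carboxypeptidase-like protein, read 2.20, 2.25, 2.20 and 0.94, so that the 3 AKT-inactive levels lay within 0.05 of each other and OSKA +4OHT 2.39-fold under them. Nell2 read -0.09, -0.14, -0.17 and -1.63. Itih2, a heavy chain that binds hyaluronan, read -2.20, -2.21, -2.18 and -3.49. The other named genes below were Nxpe2, Vmn1r52, Carmil3, Cacnb2, Klf15, Sntg2 and Mustn1, with gaps from -1.56 to -1.24. Their levels on OSKA +4OHT lay between -4.49 and -2.52. With normexp none of the 7 was 2-fold outside, and their gaps lay between -0.69 and -0.31. Carmil3 had a gap of -0.92 as the mean of its probes. With normexp the gap of Itih2 became -0.61 and that of Cilp -0.92.

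The 184 genes above the range were mostly dim ones. When the 19540 genes were ordered by mean level and cut into 3 equal parts, 110 of the 184 fell in the dimmest part, 59 in the middle and 15 in the brightest. For the 60 genes below, the numbers were 35, 13 and 12. The median range of the 3 AKT-inactive arrays was 0.46 for genes above, 0.41 for genes below and 0.23 for all genes. Gaps of at least 4-fold were seen in 16 genes above and 2 below. The pair below were Cytl1 and the predicted gene Gm15698. A second probe well above background on all 4 arrays existed for 32 of the genes above and 10 of those below. Every such probe was also at least 2-fold outside on the same side for 17 of the 32 and 3 of the 10.

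**Figure D3:**
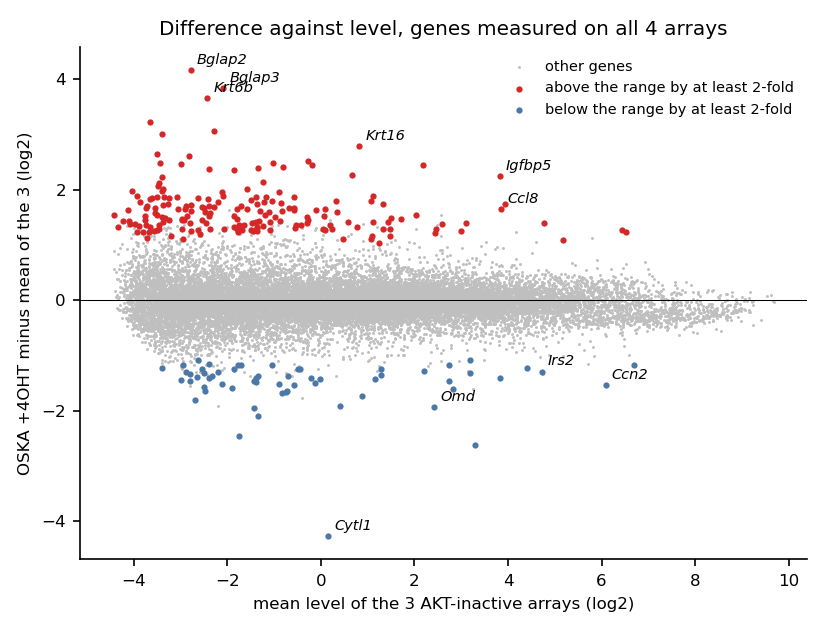
Difference between OSKA +4OHT and the mean of the 3 AKT-inactive arrays (vertical axis, log2) against that mean (horizontal axis, log2), 1 point per gene, 19540 genes. Red and blue points are the 184 and 60 genes at least 2-fold outside the range. They thin out to the right, with Igfbp5, Ccl8, Irs2 and Ccn2 among the brighter ones.

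Values just at the threshold show how little separates the inside from the outside. Ptchd1 and Sfrp4 were just outside, with gaps of 1.0 and 1.01, and Dgat2 and Morn5 just inside, with 0.99 for each. Below the range, Serpina3g and Shisa2 were just outside, both at -1.01, and Msln and Olfr1232 just inside, both at -1.0.

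Members lay near each other on the chromosomes in several places. Of 243 members with a position, 39 had another member within 250000 bases, in 24 pairs, and 5 of these pairs held genes on opposite sides. Pairs on the same side included Bglap2 with Bglap3, 9282 bases apart, Kera with Lum, Rsad2 with Cmpk2, Oasl1 with Oasl2, Reg3g with Reg1 and Slpi with Wfdc12. The myosins Myh8, Myh2 and Myh1 formed 3 pairs on chromosome 11. The share expected for genes with no relation was not computed.

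Genes measured on one side only have a bound and no fold. On OSKA +4OHT alone, 422 genes were well above background, and 101 of them were at least 2-fold above the bound set by the other arrays. Of these 101, 56 had a gene symbol. Among those with a symbol, the largest bounds were those of Vstm2l, at least 11.3-fold higher, Agr2, a protein disulfide isomerase of secretory epithelium, at least 8.86-fold, Dmrt3, at least 8.62-fold, the lens crystallin Cryba2, at least 8.24-fold, and Cd209f, at least 5.47-fold. In the opposite pattern, 232 genes were measured on the 3 AKT-inactive arrays and not on OSKA +4OHT. A bound was set for 219 genes, of which 16 were at least 2-fold lower by it, 9 of them with a symbol.

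The gene list whose median lay farthest above the AKT-inactive arrays was the interferon response, the genes that cells switch on when they sense interferon. Many of their promoters carry the interferon-stimulated response element, a repeat of GAAA, and 4 are shown, which are the members at least 2-fold above the range that held it, of 7 such members with a promoter in the table. Each is a window of 60 bases near the RefSeq start of a gene at least 2-fold above the range, in GRCm38.p6. It runs 5′ to 3′ in the direction of the gene, with every match to GAAANNGAA on either strand in capitals. The windows are chr12:26456537-26456596 on the minus strand (Rsad2), chr19:34640780-34640839 on the plus strand (Ifit1), chr4:156200850-156200909 on the minus strand (Isg15) and chr3:142559981-142560040 on the plus strand (Gbp3).
Rsad2: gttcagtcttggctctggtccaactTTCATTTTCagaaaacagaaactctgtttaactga
Ifit1: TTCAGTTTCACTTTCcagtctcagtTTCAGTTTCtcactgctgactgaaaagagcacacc
Isg15: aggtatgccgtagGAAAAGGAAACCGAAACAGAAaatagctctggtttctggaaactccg
Gbp3: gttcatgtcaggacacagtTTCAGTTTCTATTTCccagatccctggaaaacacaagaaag

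Of 44 list members measured on all 4 arrays, 43 lay above the range of the 3 at any distance, where 27.3% of all genes did, and none lay below. The exception, Trim25, lay inside it. At least 2-fold above were 9, where 0.942% of all genes were. The 9 were Rsad2, Oasl1, Mx1, Cmpk2, Oasl2, Ifit1, Isg15, Gbp3 and Zbp1. The median difference from the mean of the 3 was 1.01, against -0.04 for all genes.

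The 3 AKT-inactive arrays differed on these genes. OSKA -4OHT was the highest of the 3 for 42 of the 44 members, where it was the highest for 30.2% of all genes. The list median was 0.64 above the mean of the OSK pair on OSKA -4OHT, and 1.23 above it on OSKA +4OHT. Set against OSKA -4OHT alone, the median difference was 0.59. OSK +4OHT and OSK -4OHT differed by a median of 0.02. The list thus stood on 3 levels, the OSK pair lowest, OSKA -4OHT between and OSKA +4OHT highest.

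**Figure D4:**
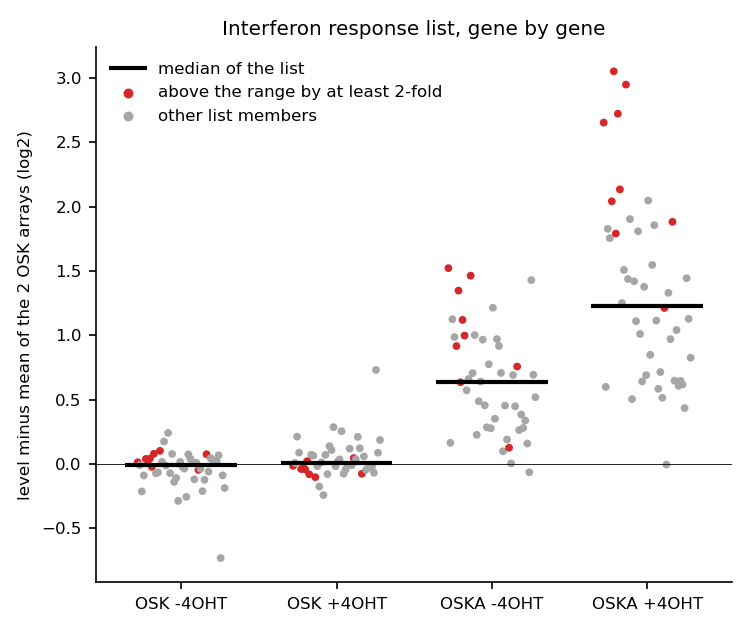
Level minus the mean of the 2 OSK arrays (vertical axis, log2) on each array for the 44 measured genes of the interferon response list. Points are genes, red where at least 2-fold above the range, and bars are list medians. The median is near 0 on both OSK arrays, 0.64 on OSKA -4OHT and 1.23 on OSKA +4OHT.

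Rsad2, the antiviral enzyme viperin, was measured on chromosome 12, 27127859 to 27127918 (NCBI37), and read -3.24, -3.30, -1.92 and -0.22, a gap of 1.70 to OSKA -4OHT and of 3.02 when that array was left out. Oasl1 read -2.25, -2.21, -1.11 and 0.49. Mx1, a dynamin-like antiviral GTPase, read -3.37, -3.57, -2.01 and -0.52. Cmpk2, the nucleotide kinase gene beside Rsad2, read -2.53, -2.61, -1.93 and -0.78, and its gap of 1.16 became 0.84 with normexp. Zbp1, a sensor of left-handed nucleic acid, was the member with 2-fold difference that did not follow the 3 steps. It read 1.01, 1.10, 1.18 and 2.27, so that OSKA -4OHT lay with the OSK arrays.

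Lists related to the interferon response differed less. Of 16 measured genes of MHC class I and the immunoproteasome, which cut and present peptides, 12 lay above the range at any distance and 2 below, against 27.3% and 37.5% of all genes, and 0 by 2-fold. The farthest above were the peptide transporter Tap1, at -1.18, -1.27, -0.80 and -0.40, and H2-K1, at 4.55, 4.85, 5.02 and 5.36. Of 22 chemokines measured, 10 lay above the range at any distance and 5 below, and 2 were at least 2-fold above it, where 0.942% of all genes were. Ccl8, which attracts monocytes, read 3.30, 4.12, 4.12 and 5.5, and Cxcl10, itself induced by interferon, read -1.37, -1.05, -0.28 and 1.06. The other 20 chemokines had differences from the mean of the 3 between -0.53 and 1.06. All 15 macrophage markers were measured on every array, with list medians of 4.52, 4.74, 4.80 and 4.59. Of these, 0 lay 2-fold outside the range and their median difference was 0.03. They were a median of 0.62 higher on OSK +4OHT than on OSK -4OHT. Their part in the interferon and chemokine levels was not tested.

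Promoters in the RefSeq table were available for 126 of the 184 genes above the range, 36 of the 60 below and 11238 of all measured genes. GAAANNGAA on either strand, between 250 bases before and 50 after the start, was found in 22 of the 126 (17.5%), 11 of the 36 (30.6%) and 8.60% of all. In the interferon response list it was found in 19 of 30 (63.3%). Outside that list, 18 of 119 genes above the range held it (15.1%). AACCACA, the RUNX motif, was in 1 of the 126 (0.794%), in 0 of the 36 and in 4.56% of all. GTAAACA, the FOXO motif, was in 3 of the 126 (2.38%), in 1 of the 36 (2.78%) and in 3.13% of all. No motif contains another, overlaps between their matches were not looked at, and a match is a description of letters and not of binding.

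Skeletal and matrix lists each had members at least 2-fold outside on both sides. In the list of bone matrix and osteoblast genes, 12 of 19 were measured, 3 were 2-fold above and 1 below, against 0.942% and 0.307% of all genes, and the median difference was -0.03. The third gene above was Phex, the peptidase of bone cells that acts in phosphate balance, at -3.71, -4.08, -3.84 and -2.09, with a gap of 0.81 under normexp. The osteoblast factor Runx2 had a gap of -0.34, and no array detected the factor Sp7, the matrix protein Ibsp or the osteocyte genes Dmp1 and Sost. Among cartilage genes, Sox9, the chondrocyte transcription factor, read -1.48, -1.80, -1.15 and -0.08, 2.09-fold above, while Col10a1, the collagen of hypertrophic cartilage, read -0.20, -0.51, -0.66 and -1.70, 2.06-fold below, beside Cytl1. With normexp the gaps of Sox9 and Col10a1 became 0.85 and -0.70, and when scaled to the spike-in probes that of Sox9 became 0.95. Among 14 small leucine-rich proteoglycans, Kera and Lum were above and Omd below. Lum, or lumican, read 4.75, 4.50, 5.03 and 6.16, with a gap of 0.96 when scaled to the spike-in probes. Of the other 11, 1 lay above the range at any distance and 6 below, against 27.3% and 37.5% of all genes, and the median of the 14 was -0.33.

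Of 14 measured genes of the list of keratins and cornified epithelium, 5 lay above the range at any distance, Krt6b, Krt16, Krt18, Krt14 and Sprr1a, and 3 below, Krt19, Krt80 and Krt20, against 27.3% and 37.5% of all genes. Krt18 had a gap of 0.85 and Krt19 one of -0.96. Krt5, Krt7 and Krt15 were well above background on OSKA +4OHT alone, none with a bound of 2-fold, and Krt6a on that array, OSK -4OHT and OSKA -4OHT. The epidermal regulator Trp63 lay inside the range. Of 16 epithelial junction genes, 0 were 2-fold outside. At any distance 5 lay above the range and 5 below, with differences from the mean of the 3 between -0.93 and 0.99. The claudins Cldn3 and Cldn7 were farthest above, with gaps of 0.52 and 0.41.

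ERK feedback, TGF-beta and sterol genes lay lower on OSKA +4OHT by their list medians. Of 18 ERK feedback genes, the inhibitors and early genes that follow MAP kinase activity, 16 lay below the range at any distance, where 37.5% of all genes did, with a median difference of -0.55. Dusp4, a phosphatase of MAP kinases, read -0.14, -0.11, -0.39 and -1.62 and was the one member 2-fold below, though not with normexp, where its gap was -0.88. Of 27 TGF-beta and SRF targets, 22 lay below, with a median of -0.44. Ccn2, the matricellular growth factor CTGF, read 6.28, 6.23, 5.74 and 4.56, a gap of -1.19, and the contractile genes Tagln and Acta2 had gaps of -0.49 and -0.48. Of 25 sterol synthesis genes, 22 lay below, with a median of -0.42 and 0 by 2-fold. Nsdhl, an enzyme of cholesterol synthesis, read 0.37, -0.30, 0.12 and -0.71. These 3 lists kept their side under each scaling tried.

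Of 28 FOXO targets measured, 16 lay below the range at any distance and 6 above, against 37.5% and 27.3% of all genes, with a median difference of -0.19. At least 2-fold below were 2 of the 28, where 0.307% of all genes were. They were Irs2, the insulin receptor adaptor, at 4.86, 4.84, 4.46 and 3.43, and Klf15, a metabolic transcription factor, at -2.74, -2.66, -3.01 and -4.26. With normexp the Klf15 gap of -1.25 became -0.41. Of the targets measured on all 4 arrays, none was 2-fold above. Igfbp1, a list member not measured on all 4, was well above background on OSKA +4OHT alone.

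**Figure D5:**
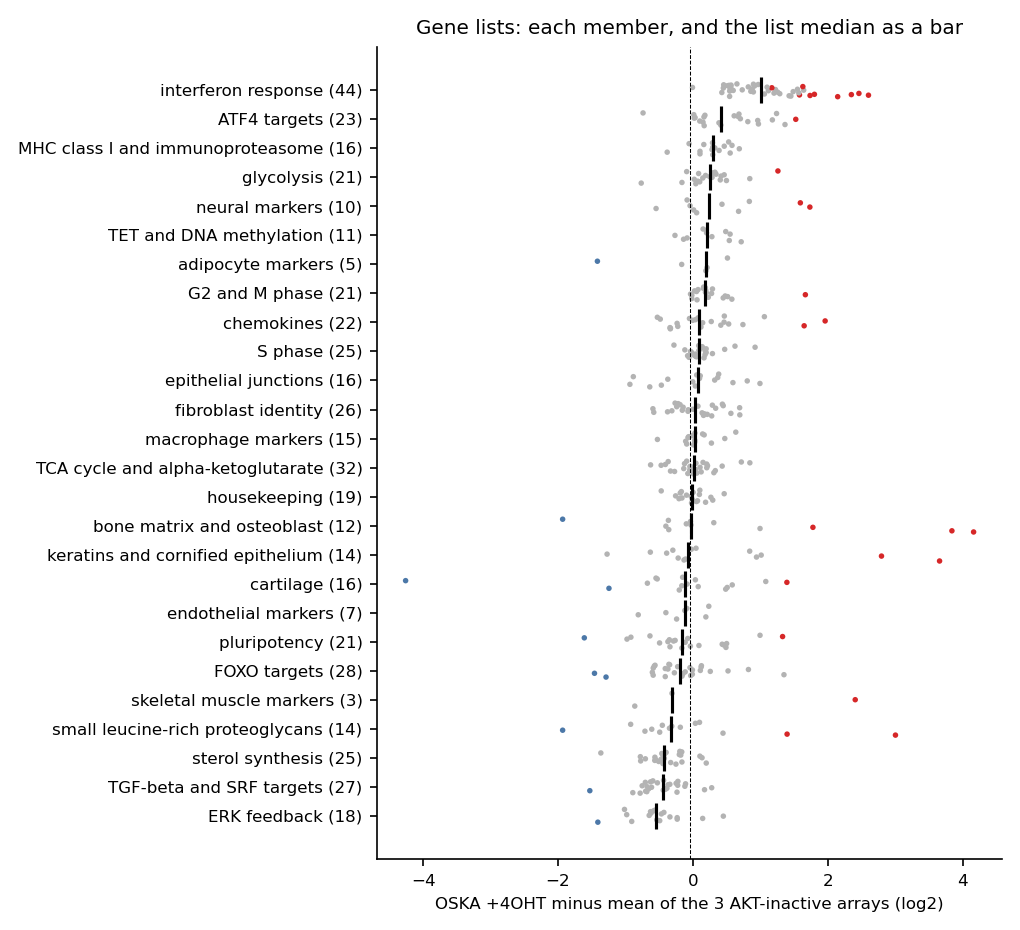
Difference between OSKA +4OHT and the mean of the 3 AKT-inactive arrays (horizontal axis, log2) for each measured member of 26 gene lists, with the number measured in parentheses. Black bars are list medians, the dashed line is the median of all genes, and red or blue points are genes at least 2-fold above or below the range. The interferon response lies farthest to the right (median 1.01) and ERK feedback farthest to the left (-0.55).

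At any distance, counts of metabolic and cell cycle genes stand against 27.3% of all genes above and 37.5% below. Of 23 ATF4 targets, the genes of amino acid supply and stress, 18 lay above the range at any distance, with a median of 0.41, which was 0.23 when scaled to the spike-in probes and 0.20 against OSKA -4OHT alone. In this list Slc7a11, the cystine transporter, was 2-fold above at -3.30, -4.30, -3.70 and -2.24. Its gap of 1.06 became 0.57 with normexp and 0.61 when scaled to the spike-in probes. OSKA -4OHT was the highest of the 3 for 18 of the 23. Of 21 glycolysis genes, 14 lay above, with a median of 0.25, and 0.0636 when scaled to the spike-in probes. Slc16a3, which exports lactate, read 2.72, 3.22, 3.02 and 4.25, a gap of 1.03, and 0.90 when scaled to the spike-in probes. Of 21 genes of G2 and M phase, 15 lay above and 0 below, with a median of 0.19, and 0.000772 when scaled to the spike-in probes. The mitotic kinase Ttk, on a dim probe, read -3.49, -3.57, -3.57 and -1.88 and was the one member 2-fold outside, with a gap of 1.61 that became 0.69 with normexp. Of 25 S phase genes, 14 lay above and 4 below, none by 2-fold, and Ccne1 and E2f2 were farthest, with gaps of 0.67 and 0.55. The S phase median was 0.09, and -0.10 when scaled to the spike-in probes. Of 32 genes of the TCA cycle and alpha-ketoglutarate, 11 lay above and 9 below, with a median of 0.02. The aminotransferases Gpt2 and Bcat1 had gaps of 0.71 and 0.60. Of 19 housekeeping genes, 4 lay above and 6 below, with a median of -0.01.

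The TET enzymes and other genes that add, remove or read DNA methylation stayed within 2-fold. Of the 11 in the list, 8 lay above the range and 3 below, against 27.3% and 37.5% of all genes, and 0 by 2-fold. The list median was 0.20, and 0.0174 when scaled to the spike-in probes. Tet1, a dioxygenase that oxidises 5-methylcytosine, read -0.19, -0.49, -0.45 and 0.34, a gap of 0.53, and its other 2 probes had gaps of 0.38 and 0.40. Tet2 read 1.59, 1.42, 1.65 and 2.09, a gap of 0.44, with 0.36 and 0.00 for its other probes. Tet3 read -1.80, -1.77, -1.73 and -1.91, a gap of -0.10. Dnmt3l had a gap of 0.48.

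Of 21 pluripotency genes measured, 5 lay above the range and 10 below, near the 27.3% and 37.5% of all genes, and 1 lay 2-fold outside on each side. Otx2, a transcription factor of early epiblast and brain, read -4.32, -4.31, -4.39 and -3.01, and its gap of 1.30 became 0.47 with normexp and 0.86 when scaled to the spike-in probes. Tdh, the threonine dehydrogenase of mouse embryonic stem cells, read 3.23, 3.01, 2.23 and 1.21 and was the one member 2-fold below, with a gap of -1.02 that became -0.98 with normexp and -0.99 when scaled to the spike-in probes. Pou5f1, which is Oct4, read 1.81, 1.23, 1.29 and 1.71, Klf4 read 3.43, 3.24, 3.50 and 3.25, and Nanog read -0.50, 0.03, -0.20 and -0.39, so that all 3 lay inside the range. Another Nanog probe was well above background on OSKA +4OHT alone, at -4.0. Sox2 and Zfp42 were not well above background on any array. The probes of the factors were not sorted into those that see the transgenes and those that see the mouse genes. Snai2, a factor of mesenchymal cells, read 2.39, 2.0, 2.58 and 2.06.

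Of 10 neural markers measured, 5 lay above the range at any distance and 3 below, against 27.3% and 37.5% of all genes. At least 2-fold above were 2, where 0.942% of all genes were. Nefl, a neurofilament, read -1.34, -1.54, -1.19 and 0.38, and S100b, a calcium-binding protein of glia, read -1.05, -1.19, -1.07 and 0.49. The neural factor Sox1 had a gap of 0.21, and Pax6 and Rbfox3 were not well above background on any array. Of 5 adipocyte markers measured, 3 lay above the range at any distance and 1 below, against 27.3% and 37.5% of all genes, with a median of 0.19. The 1 below was Plin4, a lipid droplet protein, at 1.35, 1.28, 0.82 and -0.27. It was 2-fold below, where 0.307% of all genes were, with a gap of -0.97 under normexp. None of 7 endothelial markers was 2-fold outside, and Tek, the farthest, had a gap of -0.44. Of the 26 fibroblast genes, 0 were 2-fold outside. At any distance 9 lay above the range and 8 below, with differences from the mean of the 3 between -0.59 and 0.70. Col3a1 and Thy1 were farthest above, with gaps of 0.49 and 0.40.

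OSKA -4OHT was the nearest of the 3 AKT-inactive arrays for 83 of the 184 genes above (45.1%), for 33 of the 60 below (55.0%) and for 42.6% of all genes. The difference between these shares was not tested. Without it as a reference, the counts were 261 above and 133 below.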

How the data were processed

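The deposited scanner files give, per the file headers, a one-colour intensity on a linear scale from Agilent Feature Extraction 10.7.3.1, corrected for background and spatial trend and not normalized between arrays. The authors' series matrix was found to hold these intensity values in rounded form. The labelling input was 100 ng of total RNA per sample. Control spots and 104 to 155 uneven or outlying spots per array were left out. Log2 intensity minus the 75th percentile of each array was averaged per probe. A probe counted as well above background by majority over its spots. A gene was represented by its brightest probe. Probes were named through RefSeq accessions (27509 of 55681 probes, 49.4%, table of GRCm38.p6, names only), otherwise as in the files, and coordinates are those of the files (NCBI37). Promoters came from RefSeq (GRCm38.p6). Other columns marking control, uneven and bright spots were used as deposited.

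Text names the 20 genes farthest above and 15 farthest below among genes with a symbol. It names up to 4 members per direction of each of 26 lists, otherwise the 2 farthest in the direction of the list median. It also names the 2 genes on each side of the threshold, the 5 largest bounds and 11 fixed genes. A gene that the rule names is not reported here. Genes outside this rule were chosen after their values were seen. The members and lists were chosen with earlier results of these data known. The function that finds genes outside the range was tested on simulated data. Alternatives were other background correction, scaling, filters, thresholds and probe rules, the series matrix, and leaving out each AKT-inactive array. The number of arrays limits the precision. Software was Python 3.11.15, pandas 2.3.3, and, for normexp and quantile normalization, R 4.3.3 with limma 3.58.1.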

Additional observations from a re-analysis of the deposited data

How the results depend on the processing

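No paired analysis was possible because each group has 1 array and the labels number no replicates. None of the 56 members named by the rule as leading or list genes lay on the opposite side of the range under the alternatives in which it was measured. The filter for bright probes left 16 of them, and the others have no value there. Other members in the text were not followed one by one. The genes above the range by at least 2-fold and the genes below the range by at least 2-fold numbered 311 and 138 against the mean of the 3 arrays, 834 and 302 with no filter on dim probes, 47 and 18 with probes brighter than the median, 96 and 17 with normexp, 472 and 342 at 1.5-fold, and 38 and 4 at 3-fold. Leaving out 1 AKT-inactive array gave 196 to 261 above and 71 to 133 below, the highest of both without OSKA -4OHT. Scaled to the spike-in probes, 96 genes were above, and list medians were -0.73 for ERK feedback, -0.38 for FOXO targets, 0.000772 for G2 and M phase, 0.11 for MHC class I, -0.10 for S phase (reversed), -0.17 for the TCA cycle, 0.0174 for TET and DNA methylation, -0.62 for TGF-beta and SRF targets, 0.00715 for adipocyte markers, -0.22 for bone, -0.30 for cartilage, -0.0876 for chemokines, -0.31 for endothelial markers, -0.15 for fibroblast identity, 0.0636 for glycolysis, 0.0581 for neural markers, -0.19 for housekeeping, -0.35 for pluripotency, -0.50 for skeletal muscle markers, -0.52 for leucine-rich proteoglycans and -0.61 for sterol synthesis. With no filter, medians were -0.15 for FOXO targets, 0.25 for bone, 0.0372 for cartilage and 0.0592 for muscle, the latter pair reversed. With bright probes they were -0.15 for FOXO targets, -0.36 for bone and for pluripotency, 0.0512 for endothelial markers (reversed), 0.32 for epithelial junctions, 0.0112 for neural markers and -0.47 for leucine-rich proteoglycans. With normexp they were 0.15 for G2 and M phase, 0.23 for TET and DNA methylation, 0.12 for neural markers, -0.11 for muscle and -0.19 for leucine-rich proteoglycans. With the mean of all probes they were -0.13 for FOXO targets and 0.27 for TET and DNA methylation, and with quantile normalization 0.33 for glycolysis. Leaving out 1 array gave -0.24 to -0.17 for FOXO targets, -0.0184 to 0.0352 for the TCA cycle, 0.24 to 0.27 for TET and DNA methylation, -0.55 to -0.40 for TGF-beta and SRF targets, -0.11 to 0.16 for bone, 0.19 to 0.26 for glycolysis and 0.18 to 0.30 for neural markers. A pair of references was added after seeing the data. Against OSKA -4OHT alone, medians were 0.196 for ATF4 targets, -0.37 for ERK feedback, -0.228 for FOXO targets, 0.0524 for the TCA cycle, 0.136 for TET and DNA methylation, -0.632 for TGF-beta and SRF targets, 0.0112 for adipocyte markers, 0.59 for the interferon response, 0.289 for keratins, -0.148 for bone, -0.102 for fibroblast identity, 0.107 for neural markers, 0.177 for MHC class I, 0.0393 for chemokines, -0.168 for macrophage markers and -0.483 for leucine-rich proteoglycans. Against the mean of the OSK pair, the TCA cycle median was -0.0184. The causes were not tested. Dim probes, which hold most members, are those nearest to background.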

Other observations

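The genes in these paragraphs were chosen after their values were seen. Of 22 genes of PI3K and AKT signalling, all measured, 2 were at least 2-fold above the range and 1 was below. Of all genes, 0.942% and 0.307% were. At any distance 5 lay above and 11 below, where 27.3% and 37.5% of all genes did. The regulatory subunits Pik3r3 and Pik3r1 were above, with gaps of 1.88 and 1.02. Pik3r1 read 0.33, 0.53, 0.55 and 1.57. The catalytic subunit gene Pik3cb read 0.30, 0.02, -0.23 and -0.97, a gap of -0.73. The receptor and its adaptors lay lower, with gaps of -0.95 for Igf1r, -0.81 for Irs1 and -1.03 for Irs2. Igf1r read 3.66, 3.47, 3.36 and 2.42. The kinase genes Akt1 and Akt2 lay inside the range. Of 5 measured binding proteins for insulin-like growth factors, Igfbp5 was 2-fold above, where 0.942% of all genes were. Igfbp4 had a gap of 0.59, Igfbp3 one of -0.30, and Igfbp2 lay inside the range. Igfbp1 was well above background on OSKA +4OHT alone.

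Of 10 measured carbonic anhydrases, which interconvert carbon dioxide and bicarbonate, Car14, Car12 and Car9 were at least 2-fold above the range, with gaps of 1.40, 1.28 and 1.15, where 0.942% of all genes were. On the other side Car10 had a gap of -0.79 and Car4 one of -0.0359. Car3 was well above background on OSKA +4OHT alone. Car9 read -0.18, 0.21, 0.21 and 1.36. The mitochondrial proteins Ndufa4l2 and Higd1a had gaps of 1.46 and 1.04, and Higd1a was bright on all arrays, at 5.11, 5.24, 5.20 and 6.28. The growth factor genes Fgf1 and Gdf5 were above, with gaps of 1.66 and 1.06. Below the range, Edn1 read -0.59, -0.58, -0.93 and -2.06, Fgf18 4.49, 4.43, 4.29 and 3.17, and Hbegf 3.35, 3.28, 2.94 and 1.87. The tendon transcription factor Scx read 2.80, 2.78, 2.63 and 1.56.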
